A study of Mus musculus with 3 samples.

Results

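A small set of endothelial cells with mRNA for Penk was examined in sorted endothelial cells of mouse gastrocnemius, the large calf muscle. A member was a cell barcode, the droplet label that stands for 1 captured cell, with at least 300 detected genes, at most 10% of its UMIs from mitochondrial genes, at least 1 Penk UMI and at least 3 UMIs summed over Pecam1, Cdh5, Tie1, Tek, Kdr, Esam, Emcn, Egfl7, Cldn5 and Eng. A UMI is a molecular tag that counts 1 captured mRNA molecule once. Of 11554 barcodes that passed the filters on genes and mitochondrial UMIs, 62 met the rule, which is 0.537%. They are called Penk-positive barcodes here.

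Cells came from C57BL/6N mice, for which the labels name no altered gene or transgene, and were sorted live as CD31+ and CD45- before 10x Chromium 3′ v2 library preparation. There was 1 library per group. The running group was single-housed with a voluntary running wheel for 14 days. The sedentary group was single-housed in a cage of the same size without a wheel, and the untreated library is labelled only as muscle cells with no treatment, so that its housing is not given in the sources used here. Sex, age, the number of animals behind each library and the dates of preparation are also not given. With 1 library per group no difference between groups has a replicate check, and none was tested.

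Penk encodes proenkephalin, the precursor from which proprotein convertases and carboxypeptidases cut the opioid pentapeptides Met-enkephalin and Leu-enkephalin at pairs of basic residues. Enkephalins act on opioid receptors and are best known from neurons and the adrenal medulla. Skeletal muscle endothelium is mostly capillary, rich in genes of fatty acid uptake, with fewer arterial, venous and lymphatic cells, and each of these classes has its own marker genes. Itm2a encodes a type II membrane protein with a BRICHOS domain.

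Penk (ENSMUSG00000045573) lies at chr4:4133531-4138819 on the minus strand of GRCm38. The mature peptides that Penk mRNA can give are repeated in its coding sequence, and 3 of the 7 repeats found in the coding part of transcript Penk-201 in GENCODE M21 are shown here, 5′ to 3′ on the coding strand. Capitals mark the codons of the pentapeptide, and the 6 lower-case bases on each side hold the neighbouring codons, where the convertases cut if both are basic.

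Copy 1, Met-enkephalin: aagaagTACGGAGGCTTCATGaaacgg
Copy 6, Leu-enkephalin: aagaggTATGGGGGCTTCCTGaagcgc
Copy 7, Met-enkephalin: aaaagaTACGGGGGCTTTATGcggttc

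Counted from the first base of the start codon, the pentapeptide codons of copy 1 are at bases 298 to 312, those of copy 6 at 691 to 705 and those of copy 7 at 784 to 798 of a coding length of 807 bases. The transcript holds 6 Met-enkephalin copies and 1 Leu-enkephalin copy, and 5 of the 7 have 2 basic codons on both sides. Copy 7, the last, has 1 basic codon after it. The 3′ assay counted the mRNA and gave no measure of the peptides.

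The 3 libraries held 5983685 UMIs in 3260 barcodes for running, 5625068 UMIs in 4079 barcodes for sedentary and 8002866 UMIs in 4376 barcodes for untreated. The Penk-positive barcodes were deeper than the rest, with a median of 3168 UMIs in running, 2288.5 in sedentary and 2382 in untreated, against 1529, 1129 and 1584 UMIs in the other barcodes of the same libraries. Libraries shared barcode sequences in 23 running and sedentary pairs, 20 running and untreated pairs and 32 sedentary and untreated pairs, and none of the 62 Penk-positive barcodes was among them. A doublet caller marked only 2 barcodes of the series, too few for it to have worked, so doublets were not removed, and 2 Penk-positive barcodes lay in the highest 5% of its scores.

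Penk-positive barcodes were rare in each library. They numbered 13 of 3212 kept barcodes in running (0.405%, 95% interval 0.216 to 0.691), 26 of 4016 in sedentary (0.647%, 0.423 to 0.947) and 23 of 4326 in untreated (0.532%, 0.337 to 0.797). These exact Clopper-Pearson intervals cover counting error only, as do all intervals given here, and they overlap between the libraries. After each barcode was thinned to 1000 UMIs, leaving out shallower ones, the shares were 8 of 2340 in running (0.342%), 16 of 2216 in sedentary (0.722%) and 15 of 3549 in untreated (0.423%). With at least 2 Penk UMIs asked for, they were 10 in running (0.311%), 13 in sedentary (0.324%) and 15 in untreated (0.347%). The order of the libraries therefore moved with the Penk threshold.

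The members were chosen by their UMIs of Penk and of the 10 panel genes, so these values are given as a description with no test. Penk UMIs summed to 65 in the running members, 92 in the sedentary members and 153 in the untreated members, which is 1426, 1485 and 1996 CPM (counts per 1000000 UMIs). Of the 62 barcodes, 24 had 1 Penk UMI (3 running, 13 sedentary, 8 untreated), 19 had 2 to 5 and 19 had at least 6, up to 41. Sedentary members were thus the most often at the threshold, and the barcodes just inside it, with 1 UMI, held 24 of the 310 Penk UMIs. On the panel side of the rule the members had 4 to 61 UMIs, with a median of 16. Just outside the panel threshold, none of the 114 kept barcodes with fewer than 3 panel UMIs had a Penk UMI, at a median of 770 UMIs; 3 counts of 114 give an upper limit of 2.63% for barcodes with a Penk UMI, which is no limit on cells that express Penk. Likewise none of the 161 barcodes that failed the filters had one. Every Penk UMI of the series was in a member, although the barcodes outside the thresholds were shallow and few.

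The panel genes chose the members together with Penk, so their values describe the members and are no check of the endothelial label. Pecam1 (CD31), the gene of the sorted surface protein, was at 983 CPM over all members and 1103 CPM in the other barcodes. Kdr, the main VEGF receptor, was at 972 CPM in members and 842 CPM in others. Cdh5, the VE-cadherin of adherens junctions, was at 597 CPM in members and 1574 CPM in others, and Cldn5, a tight junction claudin, at 429 CPM in members and 1197 CPM in others. Of 8 muscle fibre genes, Ckm, Myh1, Myh2, Myh4 and Tnni2 had no UMI in any member, and the list summed to 21.9 CPM in running members, 16.1 CPM in sedentary members and 91.3 CPM in untreated members, against 91.7, 56.5 and 43.9 CPM in the others. Of 6 satellite cell genes, Pax7, Myf5, Myod1, Cdh15 and Chodl had no UMI in members, and Vcam1, which endothelium also makes, had UMIs in sedentary members only.

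Some members carried mRNA of other cell types as well. A set of 5 members, 2 running, 1 sedentary and 2 untreated, held 20 to 181 UMIs of the fibroblast genes Pdgfra, Dcn, Lum, Col1a1, Col1a2, Col3a1, Pi16 and Gsn. At least 3 fibroblast UMIs were found in 33 of the other barcodes (0.287%). A set of 3 members, all untreated, held 19 to 33 UMIs of pericyte and smooth muscle genes, and 3 members held 3 to 220 UMIs of lymphatic genes with Flt4 left out. These sets share members, and 2 members passed 2 of the limits. In all, 9 members (2 running, 1 sedentary, 6 untreated; 14.5%) passed at least 1 of these limits, against 5.59% of the other barcodes. Whether they are doublets was not tested, and results are given with them and without them, which leaves 53 members.

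Itm2a (ENSMUSG00000031239, chrX:107397099-107403376, minus strand) went with Penk in every library. An Itm2a UMI was found in 11 of 13 running members (84.6%, 95% interval 54.6 to 98.1), 13 of 26 sedentary members (50%) and 13 of 23 untreated members (56.5%). In the endothelial barcodes without Penk the shares were 43 of 3182 in running (1.35%), 31 of 3946 in sedentary (0.786%) and 48 of 4250 in untreated (1.13%). Among the low-panel barcodes 2 of 114 had Itm2a, both in the untreated library. Itm2a was thus neither found in all members nor limited to them.

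At a common depth of 1000 UMIs, Itm2a was found in 7 of 12 running members, 7 of 23 sedentary members and 9 of 23 untreated members deep enough to be thinned. By level, Itm2a was at 1075 CPM in the running members, 404 CPM in the sedentary members and 600.0 CPM in the untreated members, against 10.5, 8.90 and 10.4 CPM in the other barcodes. The member values lie far above the others in all 3 libraries. In the edgeR quasi-likelihood test on sums per library, the log2 fold change was 6.16 with a standard error of 0.28 (adjusted p = 1.5e-104 over 10667 genes), and it was 6.61 without the 9 barcodes with other cell types' genes and 5.47 against barcodes of like depth.

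The share with Itm2a was larger where Penk was higher. It was 1.07% in the 11378 endothelial barcodes with no Penk UMI, 20.8% (5 of 24) with 1 Penk UMI, 78.9% (15 of 19) with 2 to 5 and 89.5% (17 of 19) with at least 6. Median depths in the same order were 1446, 1875.5, 3005 and 3007 UMIs, so depth moved with the Penk class up to the third class and was alike in the last 2. The part of depth in this order was not tested.

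**Figure D1:**
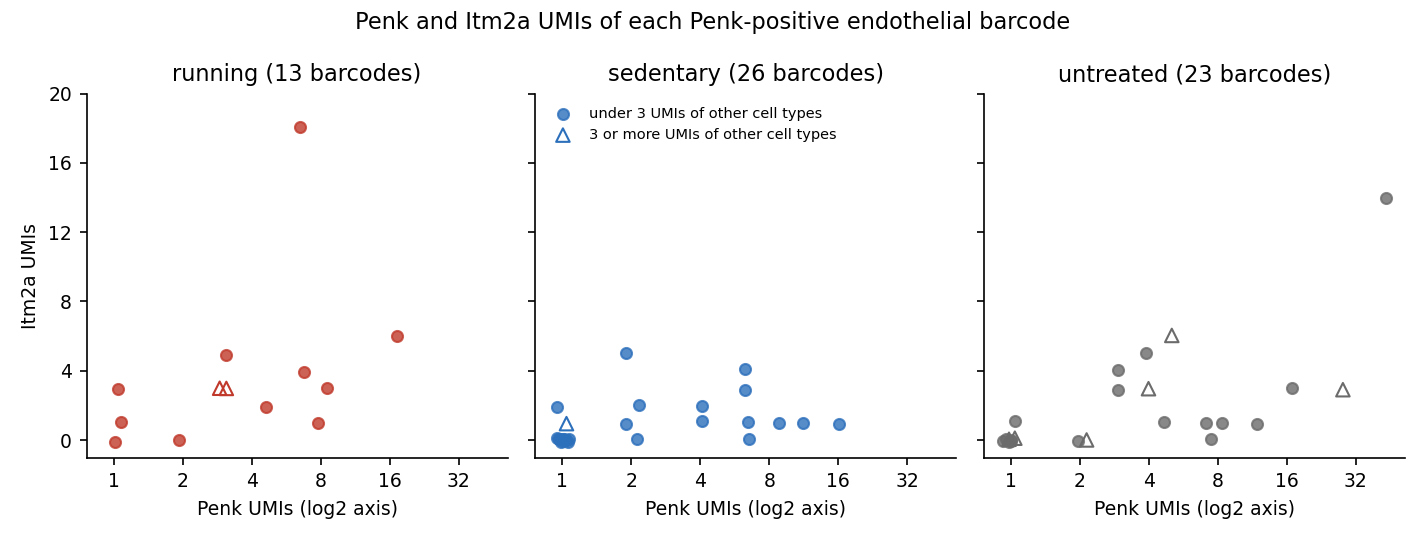
Penk UMIs (horizontal axis, log2) and Itm2a UMIs (vertical axis) of each Penk-positive barcode, in 1 panel per library. Open triangles are the 9 barcodes with at least 3 UMIs of other cell types and points are slightly shifted to show overlaps; Itm2a is at 0 in 2 of 13 running, 13 of 26 sedentary and 10 of 23 untreated members.

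Against all other barcodes, the members differed in many genes beyond Penk. Esm1, Plvap, Pam, Tnfaip2, Gas7, Col13a1 and Nr5a2 were higher with Itm2a, and Aqp1, Tcf15, Gpihbp1, Cav1 and Fabp4 were lower. Of 10667 genes tested by edgeR with the library as a block, 287 were higher in members (2.69%) and 149 lower (1.4%) at an adjusted p under 0.05, with a median log2 fold change of 0.03. Without the 9 barcodes of other cell types' genes, 180 of 10349 genes were higher (1.74%) and 107 lower (1.03%), and 166 of the 180 and 93 of the 107 were also called with those barcodes kept. Leaving out 1 library lowered the counts to 199 higher and 83 lower without running, 188 and 107 without sedentary, and 135 and 65 without untreated. The barcodes are deeper than the rest, and against 10 other barcodes of like depth per member 214 of 4358 genes were higher and 120 lower. With scaling factors taken from all genes rather than from the abundant ones, fold changes shifted by a median of -0.33 and the split was 195 higher and 322 lower; with library totals alone the shift was -0.12. The 10 panel genes and Penk were left out of the test because the rule used them.

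Of the 15 called genes with the largest fold change, 5 were the fibroblast genes Dcn, Col1a2, Gsn, Col3a1 and Col1a1, with log2 fold changes of 6.54 to 8.27 (Dcn 8.91 without running, Gsn 6.04 without sedentary). Their UMIs came from 5 to 7 of the 62 members each, and all but Gsn were tested only through their member sums. Without barcodes that hold at least 3 fibroblast UMIs, Gsn was no longer called (adjusted p = 0.87), and the other 4 were too low to be tested without the 9 barcodes. The others were found in more members and were still called without them.

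Esm1 (ENSMUSG00000042379, chr13:113209659-113218098, plus strand) encodes endocan, a proteoglycan secreted by endothelial cells and known as a marker of sprouting tip cells. Esm1 was at 571 CPM in running members, 501 CPM in sedentary members and 1043 CPM in untreated members, against 18.4, 31.1 and 26.9 CPM in the other barcodes. The members were higher in all 3 libraries, with a log2 fold change of 4.91 (SE 0.25, adjusted p = 2.2e-79), and 35 of 62 members had an Esm1 UMI.

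Plvap (ENSMUSG00000034845, chr8:71497765-71511752, minus strand) encodes the protein of the diaphragms that span fenestrae and caveolae. Its level was 2831 CPM in running members, 1647 CPM in sedentary members and 1565 CPM in untreated members, against 249, 258 and 267 CPM in the others. The log2 fold change was 3.03 (SE 0.17) over all members, 3.77 without the 9 barcodes and 2.22 against barcodes of like depth. Members were higher in all 3 libraries.

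Tnfaip2, a gene induced by tumour necrosis factor in endothelium, was at 285 CPM in running members, 178 CPM in sedentary members and 235 CPM in untreated members, against 10.0, 5.81 and 11.1 CPM in the others (log2 fold change 4.81). Gas7, which encodes an actin-binding protein, had 176, 194 and 143 CPM in the members of the same 3 libraries, against 6.46, 3.45 and 5.59 CPM in the others (5.17). Col13a1, a transmembrane collagen, had 110, 274 and 143 CPM in members, against 4.93, 6.18 and 7.63 CPM in others (4.88). Each was higher in members in every library, which the rule for naming genes asked for, and none was found in more than 28 members.

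Nr5a2 (ENSMUSG00000026398, chr1:136842571-136960448, minus strand), an orphan nuclear receptor, was found in 20 members, with 198, 96.9 and 222 CPM in the running, sedentary and untreated members and 10.9, 16.5 and 15.5 CPM in the others (log2 fold change 3.69). Fam167b (3.68), found in 22 members, and St3gal5 (3.51), the enzyme that makes the ganglioside GM3, found in 20 members, were also higher. Arc (3.86), an immediate-early gene, was found in 14 members and was at 43.9 CPM in running members, 291 CPM in sedentary members and 170 CPM in untreated members, with a log2 fold change of 4.58 without running.

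Other genes were chosen for description after their values were seen. Tmem35a, a chaperone of nicotinic acetylcholine receptors, and Pacsin1, a membrane-bending protein, both best known from neurons, were nearly absent elsewhere. Tmem35a was at 198 CPM in running members, 64.6 CPM in sedentary members and 196 CPM in untreated members, against 1.53, 0.91 and 0.89 CPM in the others (log2 fold change 7.20, 28 UMIs in 17 members). Pacsin1 had 23 UMIs in 15 members (7.23). Both genes entered the test only through their member sums, so that they were higher was close to fixed by the filter on low counts. Mef2c, a transcription factor of muscle and endothelium, was higher by a log2 fold change of 2.27, with 1514, 1421 and 1800.0 CPM in the running, sedentary and untreated members. Ehd4, an endocytic protein (2.50), and Cd24a, a glycosylated surface protein (3.22), were higher as well, as were the metallothioneins Mt1 (3.34) and Mt2 (3.31).

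Among the 10 lowest of the called genes, Aqp1, the water channel of capillary endothelium, was at 856 CPM in running members, 2583 CPM in sedentary members and 417 CPM in untreated members, against 4659, 6178 and 3478 CPM in the others (log2 fold change -2.03, SE 0.16). Tcf15, a transcription factor that acts with Meox2 in fatty acid uptake by heart endothelium of mice, was at 241, 533 and 157 CPM in members, against 1398, 1496 and 937 CPM in others (-1.98). In each of these genes the sedentary members lay closest to the others. Tspan7 (-1.72), Lims2 (-1.63), C1qtnf9 (-1.62), Apoe (-1.60), Fabp5 (-1.56), Cav1 (-1.47) and Gpihbp1 (-1.46) were the others, together with the beta-globin gene Hbb-bs (-2.74). Gpihbp1 was at -2.14 without sedentary, and Hbb-bs at -4.20 against barcodes of like depth. Globin RNA is from red blood cells and differed by library, with Hbb-bs at 1802 CPM in the other running barcodes, 2051 CPM in the other sedentary barcodes and 79.3 CPM in the other untreated barcodes. Among members Hbb-bs had 12 UMIs in running, 19 in sedentary and none in untreated. Hbb-bs and Hbb-bt, and likewise Hba-a1 and Hba-a2, are near-identical copies whose reads the counting could not tell apart with certainty.

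**Figure D2:**
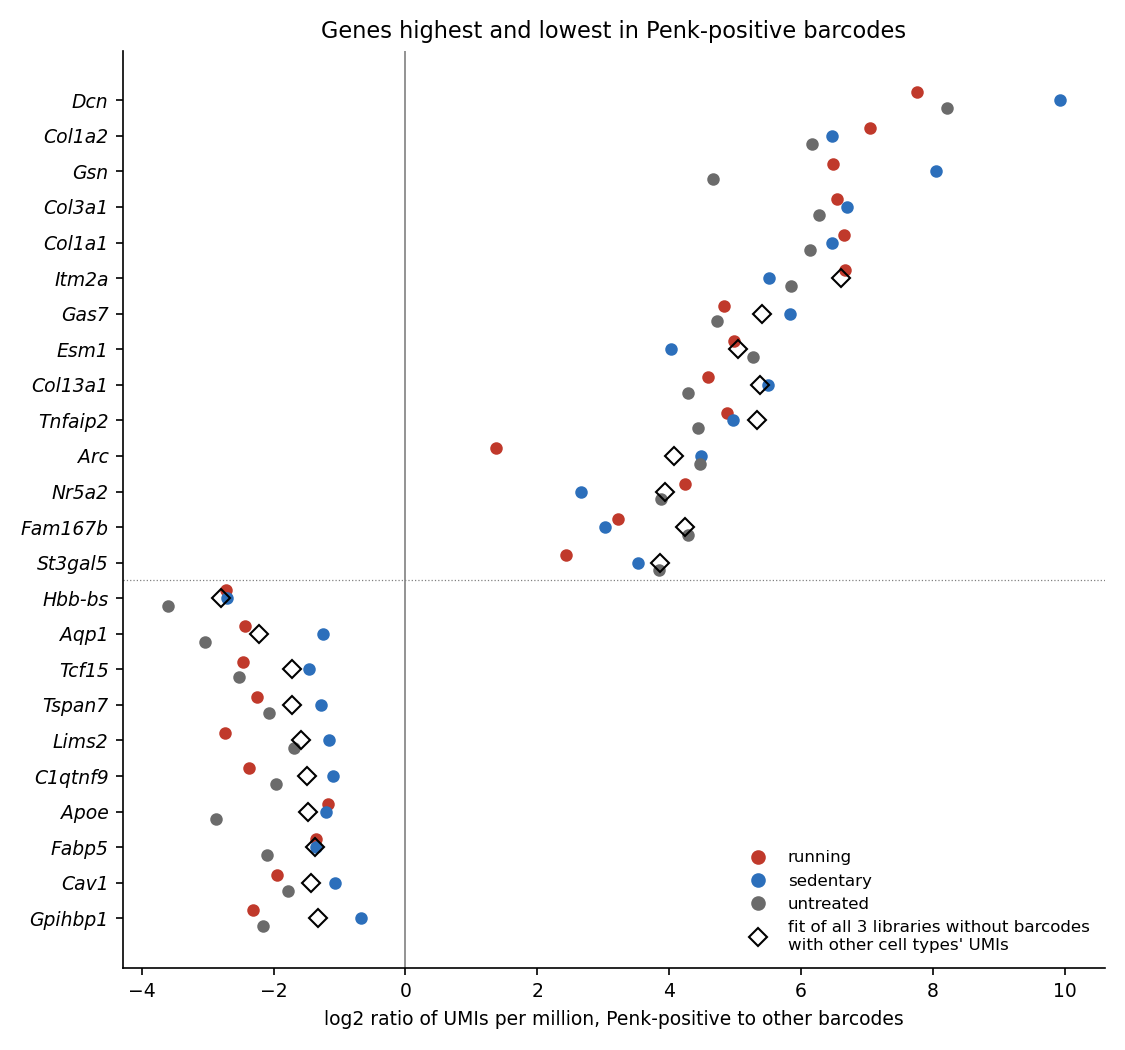
Log2 ratio of CPM in Penk-positive over other barcodes (horizontal axis) for 14 of the 15 highest and the 10 lowest called genes. Points give the running, sedentary and untreated libraries, and open diamonds the edgeR log2 fold change without the 9 barcodes with other cell types' UMIs, which is missing for the 5 fibroblast genes; all points of the 10 lowest genes lie below 0.

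Markers of vessel classes went with Penk unevenly. Counts called in these and later lists stand beside 2.69% higher and 1.4% lower of all genes tested. All 10 capillary markers were tested, and 7 of them (Timp4, Aqp1, Gpihbp1, Car4, Fabp4, Lpl and Cd36) were lower and none higher in members, with a list median log2 fold change of -1.30 beside 0.03 over all genes tested. The same 7 were lower without the 9 barcodes. The list summed to 7966 CPM in running members, 13352 CPM in sedentary members and 7983 CPM in untreated members, against 23315, 26734 and 22797 CPM in the others. Fabp4, a fatty acid carrier and one of the most abundant mRNAs of these cells, was found in all 62 members, at 3994 CPM in running members, 5715 CPM in sedentary members and 3600.0 CPM in untreated members, against 12021, 13008 and 12044 CPM in the others (-1.39). Lpl, the lipase bound to the capillary surface by Gpihbp1, had a log2 fold change of -1.21 and was not called without the untreated library (adjusted p = 0.21), and without the 9 barcodes it was at -2.06. Car4 was not called without running, without untreated or at like depth (adjusted p = 0.30, 0.12 and 0.52).

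Of 11 tested genes of veins and venules, 4 were higher: Plvap, Slco2a1 (2.24), a prostaglandin transporter, Lrg1 (1.91), a secreted glycoprotein, and Nr2f2 (1.27), the transcription factor of venous identity. Vwf, the von Willebrand clotting factor, was lower (-2.71), with 1 UMI in running, 4 in sedentary and none in untreated members. It was not called without untreated (-1.73, adjusted p = 0.12). Selp, Ackr1 and Vcam1 did not pass the test and Sele had no UMI in members. The list median was -0.56 over all members and 0.11 without the 9 barcodes, so that its sign turned. Without the 9 barcodes Nr2f2 was not called (adjusted p = 0.074) and Il6st, a cytokine receptor subunit, was (0.85). Nr2f2 was also not called without sedentary (0.54, adjusted p = 0.95) or at like depth (adjusted p = 0.079). At like depth Lrg1 was at 1.14 and Slco2a1 at 1.64, both still called. In sum the vein list was at 4236 CPM in running members, 3213 CPM in sedentary members and 2674 CPM in untreated members, against 1201, 1178 and 1669 CPM in the others, and Plvap made up most of the member sums. Plvap in untreated was at 1565 CPM in members and 267 CPM in others. The rest of the list was therefore lower in members than in others there, and higher in running and sedentary. The vein list thus held genes called in both directions, Vwf lower and the rest of those called higher.

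Of 12 artery markers 4 were lower (Fbln5, Hey1, Alpl and Stmn2) and 1 higher (Clu, 2.22), with a median of -1.08. DESeq2 called 2 of the 12. Hey1, a Notch target, had 6 UMIs in members and Fbln5, an elastic fibre protein, had 4. In Clu, 30 of the 38 UMIs of running members were in 1 barcode, and it was not called without running (1.26, adjusted p = 0.11). Stmn2 was not called without sedentary, Hey1 not without sedentary or without untreated, and Alpl not in either of these or without the 9 barcodes. The artery list summed to 1865 CPM in running members, 840 CPM in sedentary members and 848 CPM in untreated members, against 1620, 1807 and 1825 CPM in the others.

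Of 8 lymphatic genes tested 5 were higher, Ccl21a, Mmrn1, Lyve1, Flt4 and Thy1, but the list was at 241 CPM in running members, 129 CPM in sedentary members and 4330 CPM in untreated members, against 944, 188 and 281 CPM in the others. In untreated, most of these UMIs came from the barcodes named above, and none of the 2 genes still tested was called without them. Without the untreated library Ccl21a (-1.79), Mmrn1 (-8.45), Lyve1 (-8.69) and Flt4 (-0.40) turned to lower values in members. Running members held 11 and sedentary members 8 UMIs of the whole list, so the size of these negative values carries no weight. Of 11 pericyte and smooth muscle genes 1 was higher (Notch3) and 1 lower (Rgs5); Notch3 had all of its 10 member UMIs in untreated and turned to -7.39 without that library. All 7 fibroblast genes tested were higher. Dcn, Col1a1, Col1a2 and Col3a1 were too low in the other barcodes and were tested only through their member sums. That these genes were higher was thus close to fixed by the filter on low counts. Of the 7, Pi16 was the only one still tested without the 9 barcodes, and it was then not called (adjusted p = 0.86). Without the 9 barcodes, a limit set on these same genes, the fibroblast list was at 55.9 CPM in running members, 34.1 CPM in sedentary members and 24.2 CPM in untreated members, against 20.3, 8.0 and 7.48 CPM in the others. The lymphatic list was then at 168, 102 and 218 CPM in members, against 156, 76.8 and 58.0 CPM in others. The fibroblast sums of members were still the larger ones, but they rest on very few UMIs in each library, so no direction is drawn from them. Thy1 was not called without sedentary or without untreated, Rgs5 not without running or without sedentary, Notch3 not without sedentary, Pdgfra not without running and Pi16 not without sedentary.

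**Figure D3:**
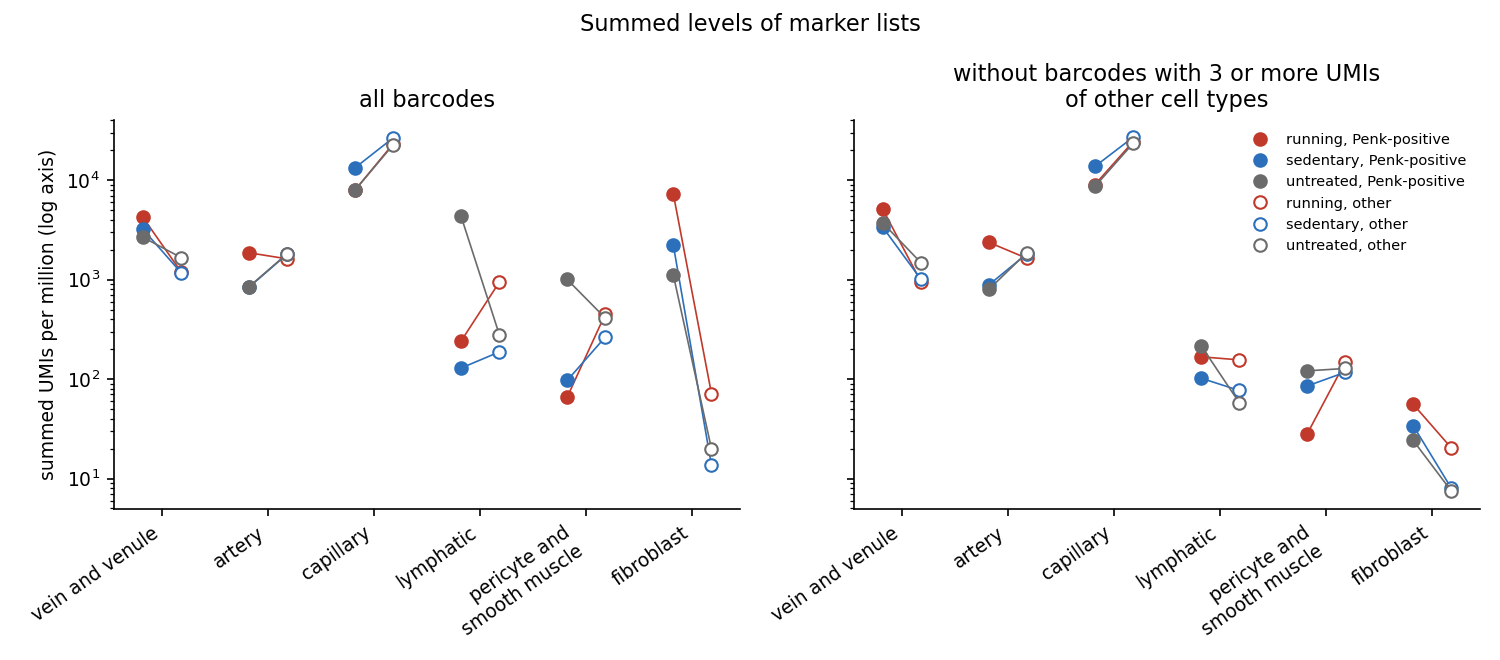
Summed level of the marker lists (CPM, log axis) in Penk-positive barcodes (filled) and other barcodes (open) of each library, with all barcodes on the left and without those holding at least 3 UMIs of other cell types on the right. Capillary sums of members lie below, and vein and venule sums above, those of the other barcodes in all 3 libraries and both panels. Plvap made up most of the vein and venule sums of members with all barcodes kept.

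Members with 2 or more Penk UMIs stood further from the rest of the endothelium than those with 1. The capillary list was at 24146 CPM in barcodes with no Penk UMI, 14456 CPM with 1 UMI, 7080 CPM with 2 to 5 and 8396 CPM with at least 6. The vein and venule list was at 1389, 2365, 2922 and 4348 CPM in the same order. Plvap, a gene of this list, was at 260, 782, 1839 and 2973 CPM in these classes and gave most of the rise. Esm1 was found in 2.79%, 25.0% (6 of 24), 73.7% (14 of 19) and 78.9% (15 of 19) of barcodes, and Plvap in 12.8%, 41.7% (10 of 24), 84.2% (16 of 19) and 100% (19 of 19). Tnfaip2 was in 151 of 11378 barcodes without Penk and in 2 of 24, 12 of 19 and 14 of 19 members. Aqp1 went the other way with the libraries pooled, found in 87.1% of barcodes without Penk and in 18 of 24, 14 of 19 and 10 of 19 members. Of the 24 members with 1 Penk UMI, 13 were sedentary, the library whose members had the highest Aqp1. In no single library did the share of members with Aqp1 fall from 1 Penk UMI to 2 to 5. The step was largest between 1 Penk UMI and 2 to 5 in all 3 of the rising genes.

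**Figure D4:**
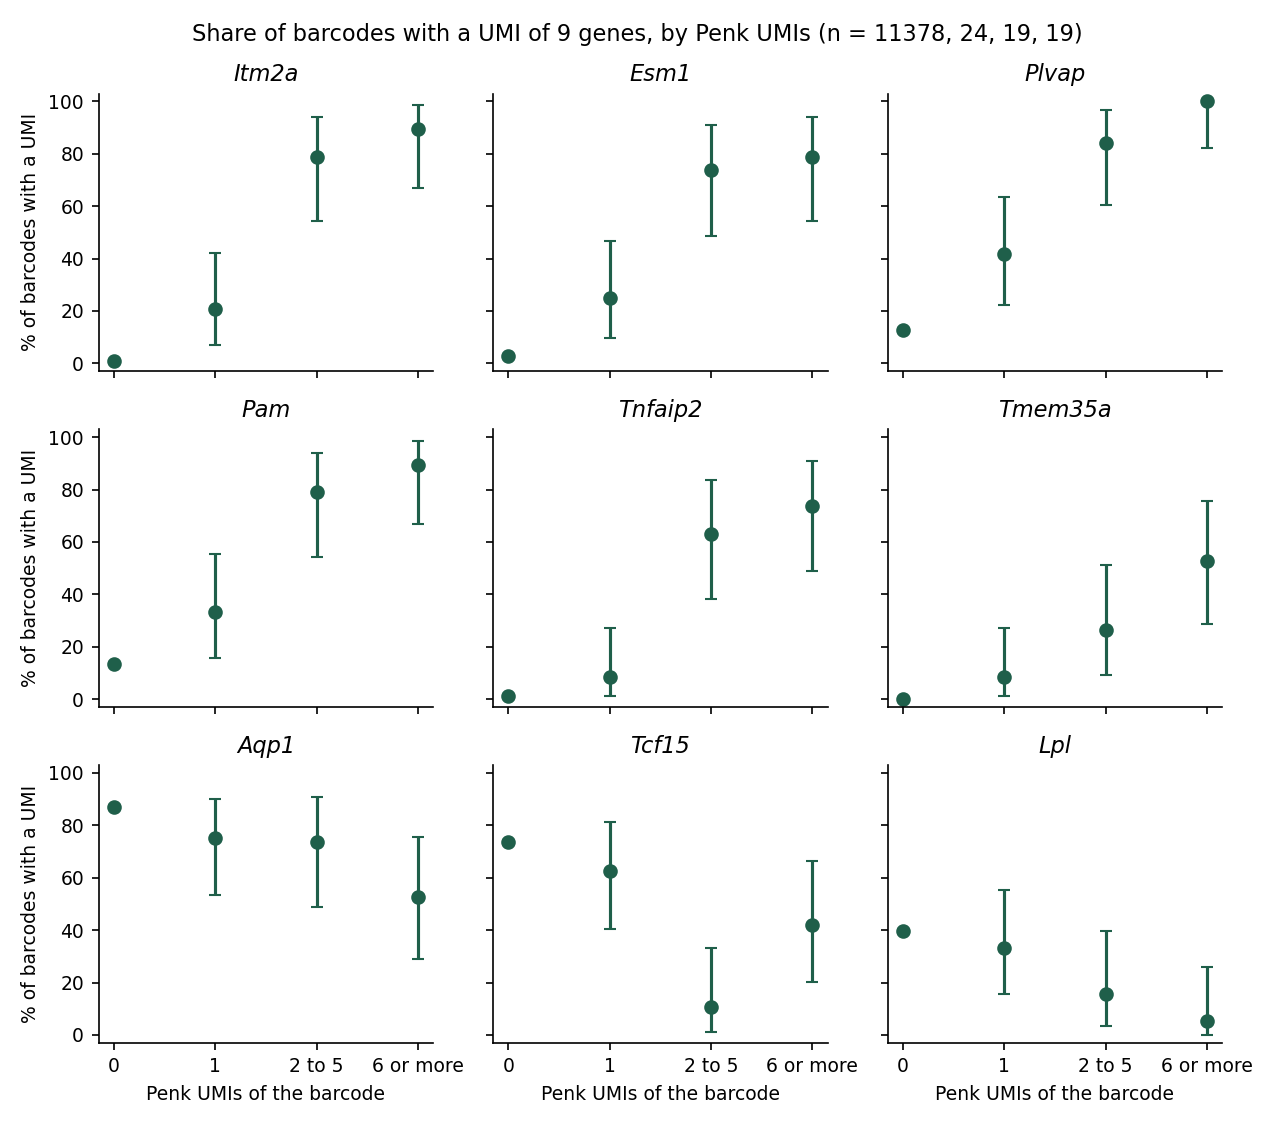
Share of barcodes with at least 1 UMI of each gene (percent, vertical axis) of 9 genes in endothelial barcodes with 0, 1, 2 to 5 and at least 6 Penk UMIs, all libraries together. Bars on the points are 95% Clopper-Pearson intervals, and those for 0 Penk UMIs are smaller than the point. With libraries pooled, the shares of Itm2a, Esm1 and Plvap are larger from class to class and that of Aqp1 smaller.

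When barcodes were clustered with Penk left out of the genes, 1 of 15 clusters held 42 of the 62 members (67.7%, 95% interval 54.7 to 79.1). It had 202 barcodes, 59 running, 51 sedentary and 92 untreated, and took up 9 of 13 running members, 15 of 26 sedentary members and 18 of 23 untreated members. It held 33 of the 38 members with at least 2 Penk UMIs, 9 of the 24 with 1 UMI, and 281 of all 310 Penk UMIs. Itm2a was found in 48.5% of its barcodes and 0.555% of the barcodes outside it, but Itm2a was open to use in this clustering. With Penk and Itm2a both left out, a cluster held 41 of the 62 members, with Itm2a in 44.7% of its barcodes and 0.608% outside. In the first clustering the cluster's median depth was 2587.5 UMIs, against 1428 outside. Its leading genes included the mural genes Pdgfrb, Kcnj8 and Notch3, so it was given no cell type name. Penk was therefore found in a minority of the cluster's barcodes.

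The members with 1 Penk UMI fell into unlike sets. The 9 inside the cluster had Itm2a in 4, Esm1 in 6 and Plvap in 8, and their capillary list was at 9090 CPM and their vein and venule list at 3770 CPM. The 15 outside had Itm2a in 1, Esm1 in none, Plvap in 2 and Aqp1 in 13, with the capillary list at 17274 CPM and the vein and venule list at 1627 CPM, nearer to the 24146 and 1389 CPM of barcodes with no Penk. These sets share genes with the clustering, so the values describe them and test nothing. Of the 20 members outside the cluster, whatever their Penk UMIs, 4 lay in a cluster of 23 barcodes with Dcn among its leading genes and 2 in a cluster of 81 barcodes led by lymphatic genes.

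The same genes were looked at in barcodes with Itm2a and without Penk, 96 endothelial barcodes without other cell types' genes (31 running, 27 sedentary, 38 untreated). Of 10473 genes tested by edgeR, 123 were higher (1.17%) and 85 lower (0.812%) than in barcodes with neither gene. Leaving out 1 library gave 66 to 93 higher and 38 to 50 lower. Both comparisons share the other barcodes, so only their own values are set side by side. Plvap had a log2 fold change of 3.77 in members without the 9 barcodes and 3.25 in the Itm2a barcodes, Esm1 5.04 and 3.74, Gas7 5.40 and 6.03, Col13a1 5.38 and 5.20, Tnfaip2 5.33 and 4.23, and Nr5a2 3.94 and 2.94. Aqp1 had -2.23 and -0.82, and Tcf15 had -1.72 and -0.83. Fabp4 (-1.30 and -0.24) and Gpihbp1 (-1.33 and -0.30) were called in members and did not pass in the Itm2a barcodes (adjusted p = 0.72 and 0.57). The difference between these comparisons was not tested. The capillary list was at 20019 CPM in the Itm2a barcodes.

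Of the genes that act on enkephalin or its precursor, most were too low to test. Among 9 opioid precursors and receptors, Ogfr, the opioid growth factor receptor, and Pomc, the precursor of beta-endorphin, could be tested, and neither was called by edgeR or DESeq2 or had an unadjusted p under 0.05. Ogfr had 8 UMIs in members. The receptor genes Oprd1 and Oprm1 and the precursor gene Pdyn had no UMI in any barcode of the series, and Oprk1, Oprl1 and Pnoc had none in members.

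Of 18 genes of peptide processing and secretory granules 9 were tested and 3 were higher, with a median of 0.08. Pam (ENSMUSG00000026335, chr1:97795114-98095646, minus strand), which encodes the enzyme that amidates the ends of neuropeptides, was at 614 CPM in running members, 759 CPM in sedentary members and 626 CPM in untreated members, against 83.8, 87.4 and 124 CPM in the others (2.88). Pcsk6, a proprotein convertase, was at 65.8, 178 and 143 CPM in members, against 8.84, 5.81 and 12.5 CPM in others (4.0). Cpe, the carboxypeptidase that trims basic residues after cleavage, was called over all members (1.5) and not without the 9 barcodes (adjusted p = 0.86), at like depth, without sedentary or without untreated. Pam and Pcsk6 were called in both fits. Of the ITM2 and BRICHOS genes, Itm2b (0.29) and Itm2c (0.19) were not called, and Cnmd and Tnmd had no UMI in members.

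Of 17 tested genes of fatty acid uptake and handling 10 were lower in members (Cd36, Fabp4, Fabp5, Gpihbp1, Lpl, Meox2, Tcf15, Cav1, Cav2 and Cavin2), with a median of -1.20. Over all genes tested 2.69% were higher and 1.4% lower, with a median of 0.03. Cd36, Fabp4, Gpihbp1 and Lpl stand in the capillary list too. Slc27a3, a fatty acid transport protein, was higher (2.59), with 154 CPM in running members, 80.7 CPM in sedentary members and 117 CPM in untreated members, against 20.2, 20.9 and 20.8 CPM in the others. Of 24 endothelial transcription factors 6 were lower, among them Mecom (-1.54), Ets2 (-1.23), Fli1 (-1.20) and Epas1 (-0.88), and Nr2f2 and Klf4 were higher. Without the 9 barcodes Nr2f2, Klf4, Epas1 and Meox2 were not called, and Ets1 was called lower. Leaving out 1 library ended the call of Klf4 and Ets2 (sedentary), Fli1 (untreated) and Meox2 (running or untreated), and Ets2 was not called at like depth.

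Of 15 tip cell and sprouting genes Esm1 alone was higher, and 5 were lower (Aplnr, Unc5b, Col4a1, Col4a2 and Trp53i11), with a median of -0.75. Among all genes tested 2.69% were higher and 1.4% lower. Aplnr, the apelin receptor, had a log2 fold change of -1.54 (-2.34 without sedentary), and Trp53i11 of -2.0. Unc5b was not called without untreated, Col4a1 not without running, and Col4a2 not without either of these libraries; both collagens were not called at like depth. Apln, Angpt2 and Pgf did not pass the test. Of 16 tested genes of brain and nerve barrier endothelium, Lsr (3.25) and Slc16a1 (2.83), a lactate transporter, were higher and Tjp1 (-1.53), Slc6a6 (-1.45) and Bsg (-0.77) lower. Lsr had 7 UMIs in members and was not called with any 1 library left out. Slc16a1 had no UMI in running members and was not called without sedentary or without untreated. Tjp1, Slc6a6 and Bsg were not called without untreated, and Bsg also not without sedentary. None of 11 canonical Wnt genes was called by edgeR or by DESeq2, and 4 had an unadjusted p under 0.05 in edgeR.

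Of 19 BMP and TGF-beta genes Tgfbr2 (1.83), a TGF-beta receptor, and Smad7 (1.01), an inhibitor of that pathway, were higher. The shares of all genes tested were 2.69% higher and 1.4% lower. Smad7 was not called with any 1 library left out. Bmp6 was lower and had no UMI in members, against 459 UMIs in the other running barcodes, 694 in the sedentary and 714 in the untreated. Of 22 matrix genes 6 were higher and 4 lower, with Ctgf (3.00) and Col15a1 (1.49) among the higher and Fbln2 (-1.83) among the lower. Without untreated, Ctgf (2.58, adjusted p = 0.21), Col15a1 (0.54, adjusted p = 0.98) and Fbln2 (-1.16, adjusted p = 0.12) were not called. Without the 9 barcodes 3 of the matrix genes were higher and 5 lower, and Smad7 was not called. Igfbp7, a secreted IGF-binding protein and the most abundant in members of the genes named here, was at 10556 CPM in running members, 10704 CPM in sedentary members and 8674 CPM in untreated members, against 3895, 4305 and 2674 CPM in the others (1.60). Among vasoactive genes Ramp3 (2.22), a receptor activity-modifying protein, Ace (1.72), the angiotensin-converting enzyme, and Ptgs1 (1.41), a cyclooxygenase, were higher, and none of 15 was lower. Ramp3 was not called without running, and Ptgs1 not without running, without sedentary or at like depth.

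Of 26 immediate-early genes, which tissue dissociation is known to induce, 10 were higher and none lower, with a median of 0.70. All genes tested gave 2.69% higher and 1.4% lower. Nr4a1 had a log2 fold change of 1.79, Socs3 of 1.24 and Fos of 1.02, and 8 were still called without the 9 barcodes. DESeq2 called 3 of the 26. Fos was at 3050.45 CPM in running members, 3600.4 CPM in sedentary members and 5491 CPM in untreated members, against 2096, 1356 and 3248 CPM in the others. The part of the dissociation in this was not tested. Of 21 interferon-stimulated genes 4 were lower (Bst2, Ifitm3, Xaf1 and Oasl2) and Irf1 was higher. DESeq2 called 1 of these genes. Xaf1 and Oasl2 were not called without the 9 barcodes, and Ifitm3, Xaf1, Oasl2 and Irf1 were not called without sedentary or without untreated. None of 12 MHC class I genes was called by edgeR or by DESeq2, with 3 at an unadjusted p under 0.05 in edgeR.

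Running and sedentary members were compared without a test, as log2 ratios of CPM with exact Poisson intervals. Penk itself had a ratio of -0.06 (-0.54 to 0.42) among members, a value that the rule's minimum of 1 UMI bears on. Itm2a was at 1075 CPM in running members and 404 CPM in sedentary members, with a log2 ratio of 1.40 (0.69 to 2.17), and 18 of its 49 running UMIs were in 1 barcode. Plvap had a ratio of 0.78 (0.40 to 1.17), with 33 of 129 running UMIs in 1 barcode, and Esm1 of 0.19 (-0.62 to 0.99). With at least 2 Penk UMIs asked for, the ratios were -0.60 for Penk, 0.76 for Itm2a, 0.27 for Plvap and -0.54 for Esm1. With each barcode thinned to 1000 UMIs they were -0.71 for Penk, 0.94 for Itm2a, 0.29 for Plvap and -0.65 for Esm1, so the sign of Esm1 turned in both. Of the 13 running members 3 had 1 Penk UMI, against 13 of the 26 sedentary members. The intervals treat UMIs as independent, which UMIs of 1 barcode are not.

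Of 376 genes that could be named, the 5 highest in running members were Clu, Bgn, Dcn, Col1a2 and Col3a1. Clu, a secreted chaperone, was at 834 CPM in running members and 145 CPM in sedentary members, a log2 ratio of 2.46 (1.45 to 3.75), with 30 of 38 running UMIs in 1 barcode. Bgn, Dcn, Col1a2 and Col3a1 are matrix genes of fibroblasts, and 19 of 23, 35 of 61, 27 of 40 and 26 of 34 of their running UMIs were in 1 barcode each. Their log2 ratios in members were 2.09, 2.34, 2.70 and 1.80. In the other barcodes the same ratios were 0.31, 4.51, 2.12 and 1.95, and that of Clu was 0.16. The higher level in running of Dcn, Col1a2 and Col3a1 was thus not particular to members, though Dcn had 1 UMI in the other sedentary barcodes. Without the 9 barcodes Bgn had no UMI in running members and 4 in sedentary members. Among the 5 lowest were Fzd4 (-1.70), Zbtb7a (-1.52), Dusp3 (-1.34) and Nrp2 (-1.34). Fzd4, a Wnt and norrin receptor, had 3 UMIs in running members and 15 in sedentary members, and Nrp2, a VEGF co-receptor, had 4 and 15; the intervals of Dusp3 and Nrp2 included 0.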

How the data were processed

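The authors deposited UMI counts per gene and barcode for 41605 genes, made with Cell Ranger 2.0.2 on GRCm38.p5 per the submitters' processing notes. The members and gene lists were chosen with earlier results of these data known. Counts of members and of other barcodes were summed per library, scaled with TMM factors from genes of at least 200 CPM, filtered with filterByExpr and tested with edgeR 4.0.16 (R 4.3.3, quasi-likelihood, library as block, Benjamini-Hochberg). Member sums are small, so a few UMIs there pass the filter. Some genes low in other barcodes were therefore tested only through the members. The 3 libraries are the replicates of the contrast of members against other barcodes. Its p-values rest on the UMI counts, the spread between these libraries and a spread shared over genes. Clumping of UMIs in single barcodes is not covered by them. On simulated counts 50 of 50 genes raised by a log2 of 2 and 23 of 50 lowered by as much were called, with 0 of 10428 unchanged genes. The simulation gave all genes the same small spread between sums and no clumping of UMIs in single barcodes. Its count of false calls is therefore no estimate for these data. Genes were named as the 15 highest and 10 lowest called genes with at least 30 member UMIs and the same direction in each library; between groups, genes with at least 40 UMIs and the same sign against sedentary and untreated. Numbered gene models and mitochondrial and ribosomal protein genes were not named, and a few items that the rule chose are not reported here. From each list, genes beyond the extremes were chosen after values were seen. Barcodes were clustered with scanpy 1.11.5 (Leiden, 2000 variable genes, 30 components, resolution 1). DESeq2 1.42.0 was an alternative. Positions and sequences are from GENCODE M21.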

Additional observations from a re-analysis of the deposited data

Results flagged for a closer look

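The summed artery markers of Penk-positive barcodes against the other barcodes of the same library had a log2 ratio of 0.20 in running and -1.11 in sedentary, so that the libraries went opposite ways. The running members held 85 UMIs of the list, 45 of them in 1 barcode, and the sedentary members 52, with at most 6 in 1 barcode. Clu gave 38 of the 85 running UMIs. The difference was not tested, since there was 1 library per group.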

How the results depend on the processing

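Of the 15 highest named genes, calls and directions held in 274 of 276 runs with another setting, and of the 10 lowest in 188 of 190. Runs in which a gene was too low to be tested are not among these. They concern Dcn, Col1a2, Col3a1 and Col1a1 without fibroblast-rich barcodes or without the 9 barcodes of other cell types' genes, and Gsn without the 9. Genes higher in members, 287, became 178 with DESeq2, 180 without the 9 barcodes of other cell types' genes and 135 to 199 with 1 library left out. Genes lower, 149, became 57 with DESeq2, 65 to 107 with 1 library left out and 322 with TMM over all genes, which gave 195 higher and in simulation shifted unchanged genes by -0.286. The labels give no replicate numbers; the library was the block, and with no replicate block 210 genes were higher and 58 lower, with Hbb-bs (adjusted p = 0.12) and Gpihbp1 (adjusted p = 0.053) no longer called by edgeR. For Itm2a barcodes without Penk, 123 higher became 70 with DESeq2, 53 with no replicate block and 66 to 93 with 1 library left out, and 85 lower became 18, 8 and 38 to 50. The causes were not tested. The sedentary share of members was 0.324% at 2 Penk UMIs. The share with Itm2a was 50% in running members chosen again after thinning, and 84.6% in sedentary and 80% in untreated members with at least 2 Penk UMIs. With 1 library left out, log2 fold changes ran between -0.96 and 3.92 for Igfbp5, -1.79 and 3.12 for Ccl21a, -8.45 and 4.04 for Mmrn1, -8.69 and 3.74 for Lyve1, -0.40 and 1.74 for Flt4 and -7.39 and 3.42 for Notch3, each lowest without untreated, and -0.042 and 0.99 for Il6st, lowest without sedentary. They also turned in Ccl21a (-0.13), Mmrn1 (-0.17) and Lyve1 (-0.17) with DESeq2, in Bgn (-1.21) without fibroblast barcodes and without the 9, and in Il6st (-0.086) at like depth. The lowest values of Mmrn1, Lyve1 and Notch3 rest on very few or no member UMIs, so their size carries no weight. Between running and sedentary members Bgn turned to -2.46 without the 9. Members number 13 to 26 per library, which limits every value.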
